A study of Homo sapiens with 9 samples.

Results

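The cytosolic DNAJ co-chaperones are described here by 9 genes, DNAJA1, DNAJA2, DNAJB1, DNAJB2, DNAJB4, DNAJB5, DNAJB6, DNAJC7 and DNAJC8. They were taken by name, and 17 probe sets that carry no other gene represent them, of 22215 probe sets and 12165 genes on the array. A probe set is a group of short probes read as 1 value, and which transcripts its probes match was not checked here. Of the 9 genes, 6 had 2 probe sets, DNAJC8 had 3, and DNAJA2 and DNAJB2 had 1 each. The study grew LNCaP, a human prostate cancer cell line that responds to androgen, for 2 days in RPMI with charcoal-stripped serum, so that all 3 groups were starved of steroids. The vehicle group then received ethanol and DMSO. The androgen group received 1 nM R1881, a synthetic androgen, with DMSO. The androgen plus celastrol group received 1 nM R1881 and 1.25 µM celastrol, a plant triterpenoid. Each group has 3 arrays, called biological replicates of this 1 cell line, with nothing on how the cultures were separated, so that p-values measure only the spread between these arrays. Descriptions and protocols give 24 h of treatment throughout, while the titles of the androgen arrays give 6 h. This conflict touches every comparison with those arrays.

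J proteins, also called HSP40s, bring unfolded clients to HSP70 and, through a conserved J domain, make it hydrolyse ATP and close on the client. Class A and class B members bind clients themselves and differ in their middle domains, while class C members share little beyond the J domain. In prostate cells the androgen receptor passes through HSP70 and J proteins before it reaches HSP90, and several J protein genes are classical targets of the heat shock factor HSF1. Celastrol is known from other work as an activator of the heat shock response.

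The promoters of the members were searched for the heat shock element, the binding site of heat shock factors. RefSeq (GRCh38.p14) gave 13 windows for the 9 genes, each from 250 bases before to 50 after a transcript start, and 3 genes had more than 1 window. The element was spelled GAANNTTC or TTCNNGAA, each of which has the same spelling on both strands. A longer form of 3 units, GAANNTTC followed by NNGAA or TTCNNGAA followed by NNTTC, was searched on both strands and contains the short ones. The short form was in 5 of the 13 windows, which belong to DNAJB1, DNAJB4, DNAJB6 and DNAJA1, and in 13.5% of all 35116 windows. The long form was in 2 of the 13 windows, those of DNAJB6 and DNAJA1, and in 0.490% of all windows. When celastrol was added to androgen, DNAJB4 rose in both probe sets. DNAJB1 and DNAJA1 fell and DNAJB6 rose, each in 1 of its 2 probe sets. Start 1 of DNAJB4 and start 1 of DNAJB1 held no short form. Which starts these cells use, and any part of the element in the changes, was not tested. A match describes these letters only and is no site shown to be bound. Capitals mark the element in the stretches below, the last 150 bases before the start for DNAJB1 (chr19:14518398-14518547, minus strand, 1 of 3 starts), DNAJB4 (chr1:78004789-78004938, plus strand, 1 of 2 starts) and DNAJB6 (chr7:157336854-157337003, plus strand), and 30 bases around the start for DNAJA1 (chr9:33025268-33025297, plus strand).
DNAJB1: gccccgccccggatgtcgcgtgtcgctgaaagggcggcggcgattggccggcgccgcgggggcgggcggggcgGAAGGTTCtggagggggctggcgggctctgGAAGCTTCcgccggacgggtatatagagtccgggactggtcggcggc
DNAJB4: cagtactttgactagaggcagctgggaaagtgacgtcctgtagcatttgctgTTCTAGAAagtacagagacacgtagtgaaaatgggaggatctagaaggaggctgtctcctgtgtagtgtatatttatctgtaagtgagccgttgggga
DNAJB6: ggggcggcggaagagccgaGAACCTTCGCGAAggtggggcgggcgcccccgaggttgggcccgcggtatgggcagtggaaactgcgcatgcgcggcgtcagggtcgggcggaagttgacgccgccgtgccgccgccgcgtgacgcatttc
DNAJA1: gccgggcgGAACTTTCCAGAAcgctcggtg
DNAJB1 thus carried 2 separate elements, which begin at bases -77 and -47 from its start, DNAJB4 1 element at base -98, and DNAJA1 the long form from base 4 after the start. DNAJA1 had a further short element at base -198, and DNAJB1 another at start 3, neither printed here. The core of the antioxidant response element, TGACNNNGC on either strand, was in 2 of the 13 windows, those of DNAJB6 and DNAJA2, and in 13.3% of all windows. A CAAT box, CCAAT on either strand, was in 4 of the 13 windows, of DNAJB1 and DNAJB5, and in 34.6% of all windows.

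The arrays were alike in median brightness, at 72.2 to 80.2. Vehicle array 3 was dimmer among the brighter probe sets, with an upper quartile of 332.5 against 377.4 to 408.7 on the other 8 arrays. It was also the exception in spread, with a standard deviation of 0.31 (log2 scale) around its group mean over all probe sets, against 0.12 to 0.21 on the others. Both touch every comparison with vehicle. The spread of vehicle array 3 also touches celastrol against androgen, because all arrays share the variance of a probe set in the fit. Call counts without that array are given below. Androgen raised KLK3, the gene of prostate-specific antigen, by 2.15 ± 0.08, and celastrol added to androgen raised the oxidative stress gene HMOX1 by 6.27 ± 0.26 over androgen alone. All 8 LNCaP markers measured were at or above the 90.0th percentile of probe set means, and the 11 measured markers of basal epithelium, fibroblasts, leukocytes and endothelium were all below the median. Their summed intensity was 464.4 to 624.5 with vehicle, 426.1 to 484.2 with androgen and 444.2 to 457.3 with the combination, and the fibroblast gene COL3A1 was lower than vehicle in both (-0.43 and -0.35). Their part in the results was not tested. Changes below are log2 fold changes ± their standard error in limma, from 3 arrays a group, and adjusted p is Benjamini-Hochberg over all 22215 probe sets of limma's moderated test, with 0.05 as the threshold.

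Celastrol added to androgen raised DNAJB4 in both probe sets. It lowered DNAJB1 and, less firmly, DNAJA1, each in 1 of 2 probe sets. Of the 17 probe sets 5 were called, where 12.6% of all probe sets were. The 3 rises, 2 in DNAJB4 and 1 in DNAJB6, stood against 6.91% of all probe sets higher. The 2 falls stood against 5.66% lower, and 12 did not pass. The median change was 0.05 over the members and 0.02 over all probe sets. Celastrol and androgen arrays were fully apart in 11 of the 17, against 32.3% of all probe sets. Androgen against vehicle gave 2 calls of 17, both falls, in DNAJB4 and DNAJB6, against 10.5% of all probe sets called, 6.04% higher and 4.47% lower. No member rose there by limma, nor at an unadjusted p under 0.05, and 5 of the 17 were fully apart against 25.3% of all. The medians were 0.04 for the members and -0.04 for all. The combination against vehicle gave 3 rises, 2 of them in DNAJB4, and 1 fall. These 4 of 17 stood against 19.0% of all probe sets called, 11.1% higher and 7.94% lower. With quantile normalization the members there gave 3 rises and 3 falls, the added falls being both DNAJA1 probe sets. There 10 of the 17 were fully apart against 33.5% of all, and the medians were 0.09 and -0.01. The member count for celastrol against androgen was 3 without vehicle array 2, androgen array 2 or 3 or celastrol array 1 or 2, and 8 without vehicle array 3. The calls over all 22215 probe sets moved too, from 2792 to 3919 without vehicle array 3, and to 1750 and 1820 without androgen arrays 2 and 3. The member count for androgen was 1 without vehicle array 1 or androgen array 2 or 3. There all calls went from 2333 to 1552 without androgen array 2. Each group serves in 2 of the 3 comparisons, which are therefore not independent. Fewer cells of a kind and less RNA per cell cannot be told apart in such bulk RNA.

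**Figure D1:**
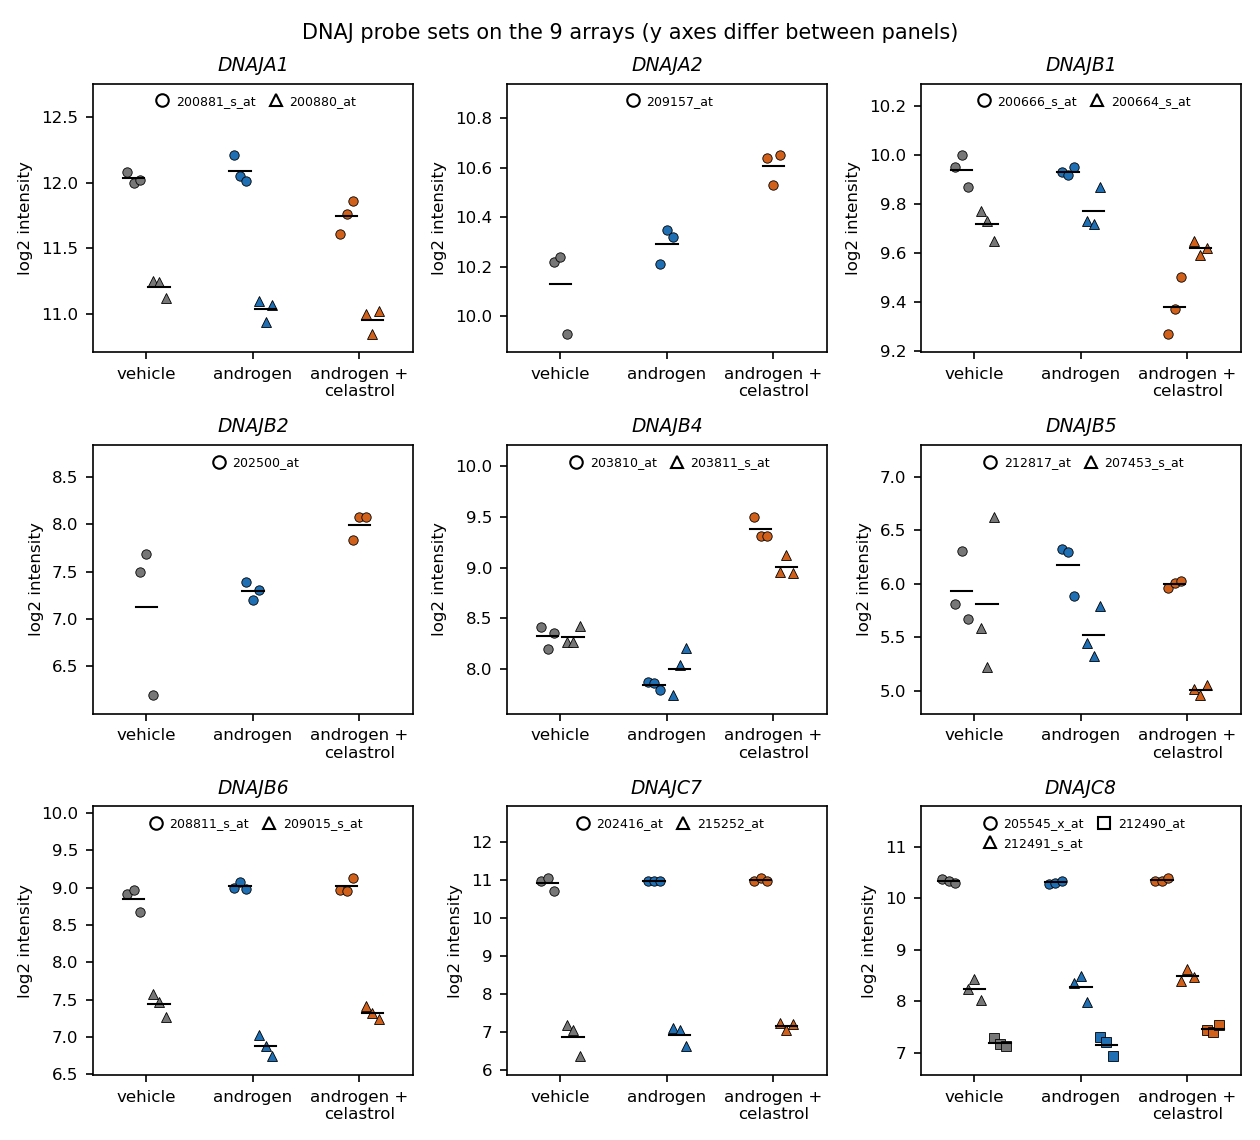
Log2 intensity (y axis) of every DNAJ probe set on each of the 9 arrays, by group (x axis), with 1 panel per gene. Each point is an array, its shape gives the probe set, and the bars are group means of 3 arrays. DNAJB4 lay highest with androgen plus celastrol in both probe sets and DNAJB1 lowest there, and vehicle array 3 was the low point of DNAJB2 (73.5 on the linear scale).

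DNAJB4, also known as HLJ1, is a class B co-chaperone close in sequence to DNAJB1. Its probe set 203810_at read 342.7, 294.4 and 329.2 in the vehicle arrays, 236.0, 233.2 and 222.2 with androgen, and 721.9, 634.7 and 634.2 with androgen plus celastrol. No 2 of the 3 groups overlapped, with androgen lowest and the combination highest. The change with celastrol was 1.52 ± 0.09 against androgen (2.87-fold, adjusted p = 3.3e-05) and 1.04 ± 0.09 against vehicle (adjusted p = 8.74e-05). Androgen alone changed it by -0.48 ± 0.09 (adjusted p = 0.00994). The second probe set, 203811_s_at, read 307.9, 307.9 and 345.0 with vehicle, 214.8, 262.9 and 296.3 with androgen, and 498.3, 557.9 and 495.4 with the combination. It rose by 1.01 ± 0.13 over androgen (adjusted p = 0.00103) and by 0.69 ± 0.13 over vehicle (adjusted p = 0.00452). Its value of -0.32 ± 0.13 for androgen alone did not pass (adjusted p = 0.176), although those arrays did not overlap. Both rises, and the fall of 203810_at with androgen, were called under all alternatives run on them.

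DNAJB1 is the main heat-inducible class B co-chaperone, which with HSP70 and HSP110 can take protein aggregates apart. Probe set 200666_s_at read 987.8, 1022.0 and 935.8 with vehicle, 977.1, 965.8 and 988.8 with androgen, and 619.5, 660.7 and 724.0 with androgen plus celastrol. All 3 celastrol arrays were below the other 6, while the vehicle and androgen arrays overlapped. The change was -0.55 ± 0.08 against androgen (0.682-fold, adjusted p = 0.00314) and -0.56 ± 0.08 against vehicle (adjusted p = 0.00178), and -0.0059 ± 0.085 for androgen alone (adjusted p = 0.982). Probe set 200664_s_at read 852.2, 843.7 and 934.2 with androgen and 805.0, 768.2 and 786.3 with the combination. These arrays did not overlap either, but its change of -0.16 ± 0.08 did not pass (adjusted p = 0.294; 95% interval -0.34 to 0.02). The fall of DNAJB1 thus passed in 1 of its 2 probe sets, whose interval was -0.74 to -0.36. The mean of both passed too, at -0.35 against androgen.

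DNAJB5 is the third class B member with the same order of domains. Both of its probe sets had means below the median of all probe sets. Probe set 212817_at ranged from 50.9 to 80.6 over the 9 arrays, and the 3 groups overlapped. Probe set 207453_s_at read 48.3, 37.2 and 99.0 with vehicle, 43.7, 40.0 and 55.3 with androgen, and 32.4, 31.1 and 33.2 with the combination. The combination was the lowest group without overlap, yet the change of -0.51 ± 0.31 from androgen did not pass (adjusted p = 0.391). Vehicle array 3 held the high value of 99.0. Without it the change from androgen was still -0.51 but was called (adjusted p = 0.0391), as vehicle arrays enter it only through the shared spread.

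The responses of these 3 relatives were compared directly, by the per-array difference in log2 intensity between the brightest probe sets of 2 genes. The pair DNAJB1 and DNAJB4 was known from earlier results of these data, and how many other gene pairs separate as far was not counted. DNAJB4 changed by 2.07 more than DNAJB1 when celastrol was added to androgen, with SDs of 0.21 and 0.06 in the 2 groups. DNAJB5 changed by 1.70 less than DNAJB4 and by 0.38 more than DNAJB1 in that comparison. In each of these 3 the arrays did not overlap, and the exact two-sided permutation test gave p = 0.10, the smallest that 3 against 3 arrays allow (0.129 after Benjamini-Hochberg over 9 tests), so that no pair could pass. With probe sets averaged the difference between DNAJB5 and DNAJB1 shrank to 0.012, while that between DNAJB4 and DNAJB1 was 1.62.

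DNAJA1 is a class A co-chaperone that feeds clients, steroid receptors among them, to HSP70. Probe set 200881_s_at read 4331.3, 4087.3 and 4142.7 with vehicle, 4745.1, 4254.0 and 4130.9 with androgen, and 3134.7, 3464.2 and 3706.9 with the combination. The celastrol arrays were below the other 6. The change was -0.35 ± 0.09 from androgen (adjusted p = 0.0417) and -0.29 ± 0.09 from vehicle, which did not pass (adjusted p = 0.0653). The value from vehicle did pass with a pseudocount of 16 (0.0439), with dim probe sets removed (0.026), with quantile normalization (-0.41, 0.0103), with an intensity trend (0.0119) and as the mean of both probe sets (0.0372). The call against androgen lay near the threshold. It was lost without vehicle array 1 or 2, without any 1 androgen array and without celastrol array 1 or 2 (adjusted p from 0.0606 to 0.154). Fitting the compared groups alone ended it too (0.0574), as did the replicate block (0.0908) and the mean of both probe sets (0.109). Probe set 200880_at read 2191.6, 1963.1 and 2153.0 with androgen and 2052.5, 1846.7 and 2072.9 with the combination, which overlap, at -0.08 ± 0.09 (adjusted p = 0.685). Against vehicle its -0.25 ± 0.09 did not pass (adjusted p = 0.0913), but did with dim probe sets removed (0.0366), quantile normalization (0.0133) or an intensity trend (0.0237).

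DNAJA2, the other class A member, moved the opposite way in its means. It read 1193.2, 1205.8 and 975.8 with vehicle, 1186.7, 1303.9 and 1277.7 with androgen, and 1595.7, 1480.3 and 1603.1 with the combination. The combination was above both other groups without overlap. It rose by 0.48 ± 0.10 over vehicle (adjusted p = 0.0107), a call kept without each array in turn, including the low vehicle array 3 (adjusted p = 0.0138 to 0.0412). Against androgen its 0.31 ± 0.10 did not pass (adjusted p = 0.0894, 95% interval 0.08 to 0.55). It passed without vehicle array 3 at the same 0.31 (0.0226). It also passed with dim probe sets removed (0.037), with an intensity trend (0.0334) and with the compared groups alone (0.0431).

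**Figure D2:**
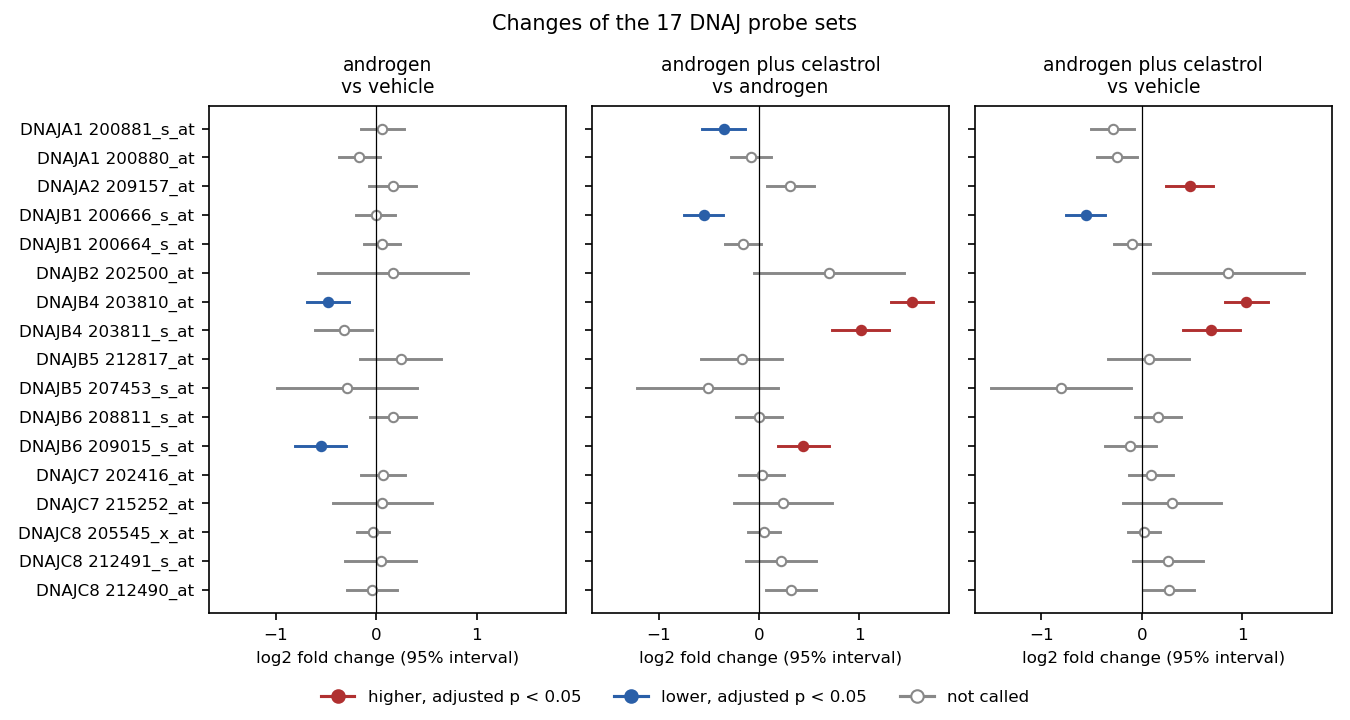
Log2 fold change of the 17 DNAJ probe sets (x axis) in the 3 comparisons, with 95% intervals of the limma fit that are not adjusted for the number of tests. Filled points passed the threshold, and both DNAJB4 probe sets lie to the right in the panels with celastrol, at 1.52 and 1.01 against androgen.

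DNAJB2 and DNAJB6 are class B relatives that hold clients back from aggregation, DNAJB2 with motifs that bind ubiquitin. DNAJB2 read 180.8, 206.7 and 73.5 with vehicle, 167.2, 147.3 and 158.4 with androgen, and 228.1, 268.7 and 270.3 with the combination. The combination was the highest group, without overlap, but with all arrays in the fit 0.70 ± 0.33 against androgen (adjusted p = 0.251) and 0.86 ± 0.33 against vehicle (adjusted p = 0.11) did not pass. Without vehicle array 3 both were called, at 0.70 (adjusted p = 0.00208) and 0.40 (adjusted p = 0.0393), and the value for androgen alone turned from 0.17 to -0.30, uncalled in both cases. The value of 0.70 against androgen did not change, as vehicle arrays enter it only through the shared spread. Without vehicle array 2 the value against vehicle was called at 1.15 (adjusted p = 0.044), and the compared groups alone gave a call against androgen (0.00464).

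The 2 DNAJB6 probe sets differed. Probe set 209015_s_at read 191.1, 176.7 and 154.5 with vehicle, 131.0, 117.6 and 107.0 with androgen, and 170.2, 160.0 and 151.3 with the combination. Only the androgen arrays stood apart, below the other 6. It changed by -0.55 ± 0.11 with androgen (adjusted p = 0.0125) and by 0.44 ± 0.11 when celastrol was added (adjusted p = 0.0337). Probe set 208811_s_at, the brighter, read 482.9, 502.5 and 408.6 with vehicle and 513.7, 537.0 and 505.5 with androgen, a change of 0.16 ± 0.10 in the other direction that did not pass (adjusted p = 0.452). Between androgen and the combination it differed by -0.0014 ± 0.10 (adjusted p = 0.995). The call of 209015_s_at for androgen was lost without vehicle array 1 or without androgen array 2 or 3 (adjusted p = 0.0529 to 0.0546). That for celastrol was lost without vehicle array 2, androgen array 2 or 3 or any 1 celastrol array (0.0511 to 0.126), and with an intensity trend (0.0545). Another probe set shared by DNAJB6 and its pseudogene was left out.

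The class C members showed no call in the main limma fit, and at an unadjusted p under 0.05 DNAJC8 212490_at alone passed, in both comparisons with celastrol. DNAJC7, or TPR2, carries tetratricopeptide repeats that bind HSP70 and HSP90. Its probe set 202416_at ranged from 1676.2 to 2117.3 and held exactly 2004.4 on 5 of the 9 arrays, and its change with celastrol was 0.03 ± 0.10 (95% interval -0.19 to 0.25). Values repeated exactly on 2 or more arrays were found in 5 of the 17 member probe sets and in 44.3% of all probe sets. Probe set 215252_at ranged from 81.4, in vehicle array 3, to 148.9. DNAJC8 is known as a nuclear protein bound to splicing factors, so that it stands here by the list and not by its place in the cell. Its probe set 205545_x_at ranged from 1251.5 to 1352.5, with a celastrol change of 0.05 ± 0.07 (95% interval -0.11 to 0.21). Probe set 212490_at read 157.8, 148.0 and 121.5 with androgen and 174.2, 170.5 and 185.2 with the combination, which did not overlap, at 0.32 ± 0.11 (adjusted p = 0.105). This change was called with dim probe sets removed (0.0465). Probe set 212491_s_at overlapped between all groups, from 252.5 to 392.8.

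Genes with a like pattern were taken by the root mean square difference of centred log2 profiles over the 9 arrays. Only the brightest probe sets of DNAJB1, DNAJB4 and DNAJA1 were used, and how many other genes lay nearly as close was not counted. The other DNAJB1 probe set, 200664_s_at, changed by -0.16 with celastrol added. For DNAJB1 200666_s_at the nearest genes were HNRNPC (0.039), URI1 (0.047) and the constitutive HSP70 gene HSPA8 (0.053). For DNAJB4 they were the autophagy receptor gene SQSTM1 (0.10), SEL1L3 (0.11) and KLHL21 (0.11), and for DNAJA1 they were HMGN5 (0.040), IMPACT (0.043) and AGGF1 (0.049). HSPA8, the partner that most J proteins here serve, read 12814.5, 12814.5 and 13578.6 with androgen and 9148.9, 9387.6 and 9662.4 with the combination. It changed by -0.48 ± 0.08 (adjusted p = 0.00412), with no overlap between the groups.

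The other parts of the chaperone system were counted by the brightest probe set of each gene, on lists chosen with earlier results of these data known. By this measure 3 of the 9 members were called for celastrol against androgen, 1 higher and 2 lower, where 14.7% of all genes were (8.13% higher, 6.60% lower). For androgen against vehicle 1 of 9 was called, lower, where 12.1% of genes were (6.71% higher, 5.35% lower). For the combination against vehicle 2 of 9 were higher and 1 lower, where 21.9% of genes were called (12.6% higher, 9.30% lower). Of 16 HSP70 partners and exchange factors, which release ADP and client from HSP70, 4 rose and 1 fell with celastrol over androgen (median 0.05). BAG2, an inhibitor of the ubiquitin ligase CHIP, rose by 0.96 ± 0.18 and HSPA1L, close in sequence to other HSP70 genes that its probes were not checked against, by 0.64 ± 0.11, and HSPA8 was the one that fell. The count of 5 was 3 without any 1 androgen array or without celastrol array 2 or 3. HSPH1, the HSP110 that works with DNAJB1, did not pass at -0.18 ± 0.11 (adjusted p = 0.38). Androgen alone lowered 2 of the 16, HSPA4L (-1.30 ± 0.17) and HSPA1L (-1.04 ± 0.11), and against vehicle the combination gave 3 rises and 3 falls. Of 11 measured genes of HSP90, its partners and quality control, 1 was called in each comparison, the androgen target FKBP5. It changed by 4.49 ± 0.14 with androgen and by -1.37 ± 0.14 when celastrol was added. For celastrol against androgen 2 of these genes were called without vehicle array 3, with a pseudocount of 16 or with dim probe sets removed. The count was also 2 with quantile normalization, an intensity trend or probe sets averaged. Of the heat shock factors HSF1 and HSF4 were measured and neither was called by limma in any comparison, nor at an unadjusted p under 0.05, with HSF1 at -0.05 ± 0.19 for celastrol against androgen (adjusted p = 0.929).

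J proteins of other places or tasks were measured in 23 of 35 listed genes. Of all genes 6.71% were called higher and 5.35% lower for androgen, 8.13% and 6.60% for celastrol added, and 12.6% and 9.30% for the combination. Shares of all genes at an unadjusted p under 0.05 were not counted. With androgen 7 of the 23 rose and none fell by limma (also 7 and 0 at an unadjusted p under 0.05, median 0.12), led by DNAJB9 (2.33 ± 0.16) and DNAJC10 (1.52 ± 0.13) of the endoplasmic reticulum. That count of 7 was 4 without vehicle array 1 or androgen array 1 or 2, and 3 without androgen array 3. With celastrol added 4 rose and none fell by limma (8 and 3 at an unadjusted p under 0.05; median 0.18), led by DNAJC3 (0.92 ± 0.11), which inhibits the kinase PERK, and DNAJC1 (0.89 ± 0.15), with 8 called without vehicle array 3. Against vehicle the combination raised 9 and lowered 1, DNAJC11 (-0.36 ± 0.10, adjusted p = 0.029). That fall lay near the threshold and was lost in 9 of 18 alternatives, among them without vehicle array 1 or 2, androgen array 1 or any 1 celastrol array (0.0505 to 0.0835), with medians subtracted (0.051), the compared groups alone (0.0842) and the replicate block (0.0579).

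**Figure D3:**
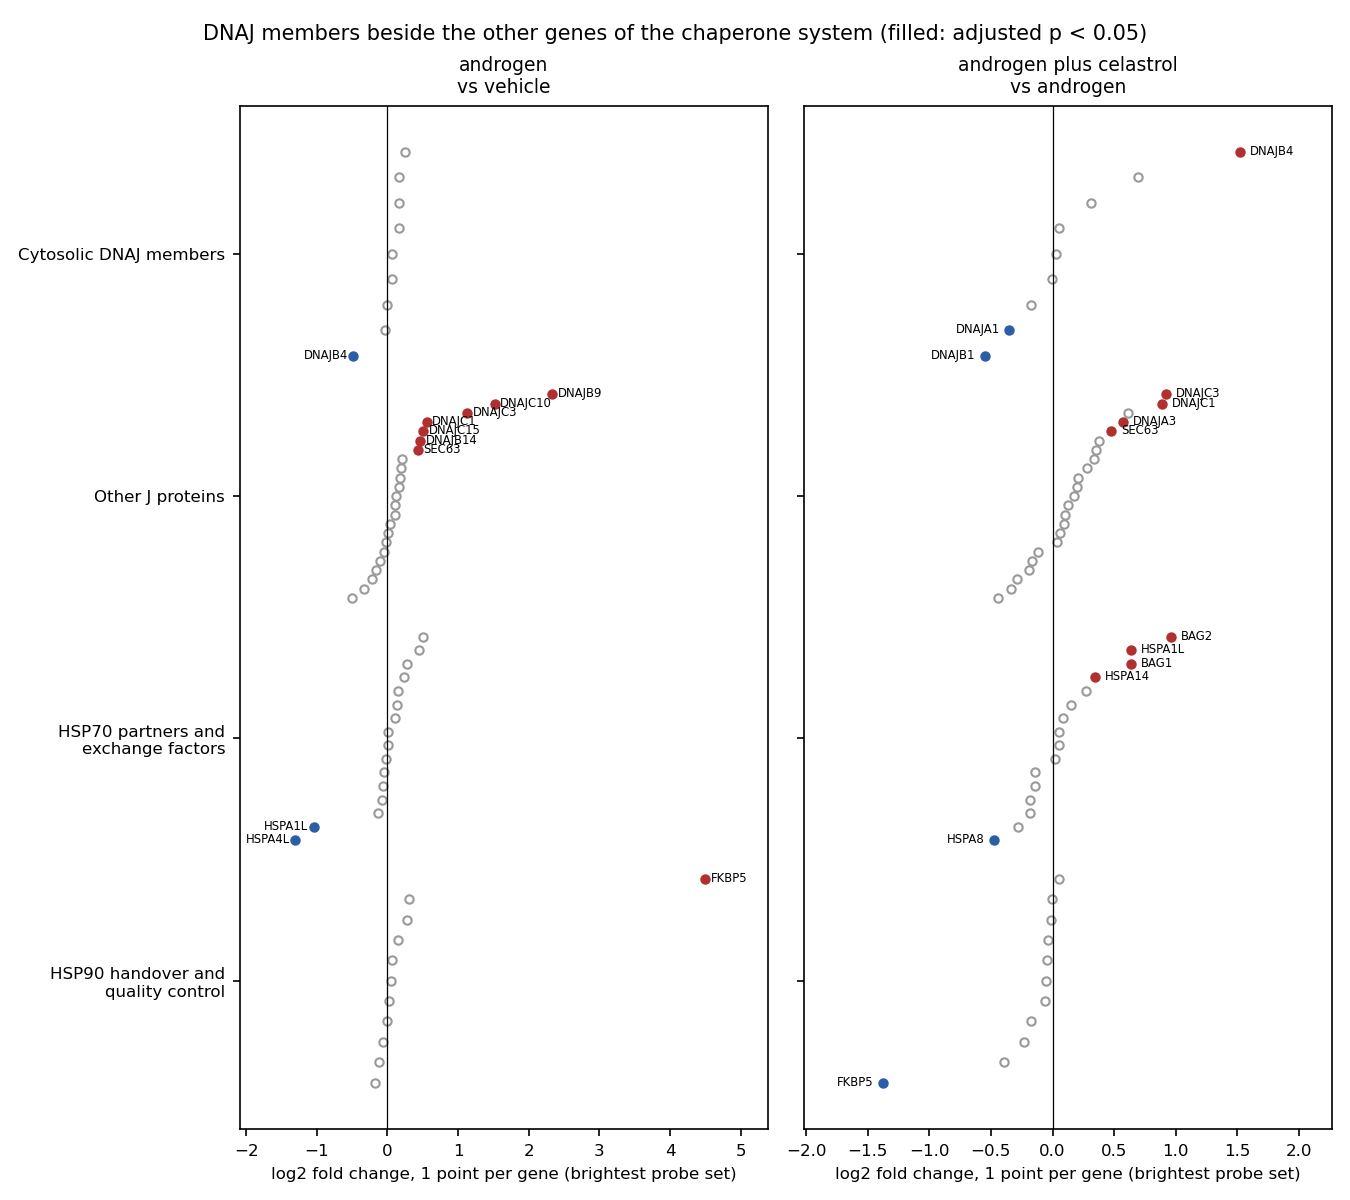
Log2 fold change (x axis) of the 9 DNAJ genes and of 3 lists of chaperone genes, with 1 point per gene for its brightest probe set, for androgen against vehicle and for celastrol added to androgen. Filled and named points passed the threshold. In the right panel DNAJB4 (1.52) lies apart from the other members, and DNAJA1, DNAJB1 and HSPA8 lie to the left.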

How the data were processed

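The deposited table holds 1 intensity per probe set and array on a linear scale, which the submitters' processing notes say came from RMA. Its version was not given in the sources used here. RMA is meant to bring arrays to a common distribution, so that a change in total RNA is not seen. The upper quartiles of the deposited arrays still differed, from 332.5 to 408.7. From the deposited intensities log2 was taken with a pseudocount of 0. Gene names came from the platform annotation, with symbols updated through gene IDs (19724 probe sets have 1 gene, 568 several and 1923 none listed). All 22215 probe sets were fitted on all 9 arrays in 1 limma model (version 3.58.1, R 4.3.3), with moderated variances, no intensity trend, 6 residual degrees of freedom and 2.8 from the prior, a step tested on simulated data. Precision is limited by having 3 arrays a group.

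The members and lists were chosen with earlier results of these data known. Every member probe set is named. Of the other lists at most 2 rises and 2 falls per comparison are named, with HSPA8, HSPH1, HSF1, HMOX1 and KLK3, and fewer where they repeat. Listed genes without a probe set were not analysed here. Replicate numbers were checked by the correlation of deviations from group means. Same-numbered vehicle and androgen arrays correlated at 0.39, 0.37 and 0.63, while vehicle and androgen arrays of other numbers reached 0.41, above the first 2 of these values. For number 3 the highest value with another number was -0.40, so these 2 arrays deviated from their groups in a like way. Deviations within a group of 3 arrays depend on each other, and so do these correlations. For celastrol against androgen the same-numbered values were -0.09, 0.22 and -0.16, and against vehicle -0.26, 0.12 and -0.27. Whether equal numbers mark pairs thus stayed unclear. The main fit used no pairing, and the replicate block was run as an alternative. Scan dates were not analysed here. Alternatives were another pseudocount, a filter on dim probe sets, other normalizations, an intensity trend, the compared groups alone, a replicate block, 1 value per gene, and each array left out.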

Additional observations from a re-analysis of the deposited data

How the results depend on the processing

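With the replicate block, 2, 4 and 4 member probe sets were called (androgen against vehicle, celastrol against androgen, combination against vehicle), against 2, 5 and 4 without it. Among the member probe sets and the chaperone and control genes refitted with it, the calls it removed were DNAJA1 for celastrol against androgen (adjusted p = 0.0908), DNAJC1 for androgen (0.0882) and DNAJC11 for the combination (0.0579), and it changed no other call among them. COL3A1, HSF4 and the genes named for likeness were not refitted. Of 864 values of member probe sets under an alternative, 792 kept their direction and side of the threshold. Leaving out 1 array gave 1 to 2 member calls for androgen and 3 to 8 for celastrol, with 2 to 5 member genes there, the highest without vehicle array 3. All probe sets called ranged from 1552 to 2631 for androgen and from 1750 to 3919 for celastrol. The lowest counts were without androgen array 2, and the celastrol count was 1844 without androgen array 1 and 1820 without androgen array 3. With probe sets averaged, 5 member genes were called for the combination, and the difference between DNAJB5 and DNAJB1 became -0.05 for androgen and -0.039 for the combination. The split of calls for androgen was 1341 higher and 992 lower as deposited, 1821 and 738 with each array's median subtracted, 1375 and 1315 with quantile normalization, and 1302 and 1329 without vehicle array 3. For the combination it was 2459 and 1763, 3008 and 1475 with medians subtracted, and 2319 and 2346 with quantile normalization. For celastrol against androgen it was 1534 and 1258, 1420 and 1389 with medians subtracted, and 1501 and 1585 with quantile normalization. Member calls for the combination ranged from 4 to 6 and equalled or exceeded those for celastrol under several settings.

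Sign changes of uncalled values were as follows. With medians subtracted, androgen values became 0.07 for DNAJB1 200666_s_at, 0.05 and 0.035 for DNAJC8 205545_x_at and 212490_at, 0.06 for HSPA8 and 0.06 for DNAJC11, and the combination value of HSF1 became 0.06. With quantile normalization, androgen values became -0.0042 for DNAJA1 200881_s_at, -0.013 for DNAJB1 200664_s_at, -0.024 for DNAJC8 212491_s_at, 0.01 for HSPA8, -0.05 for HSPH1 and -0.07 for BAG2. The celastrol value of DNAJC7 202416_at became -0.00021, and combination values became -0.10 for DNAJC8 205545_x_at and 0.016 for HSF1. With probe sets averaged, androgen values became -0.05 for DNAJA1, 0.025 for DNAJB1, -0.026 for DNAJB5, -0.19 for DNAJB6 and -0.011 for HSF1. Celastrol values became 0.22 for DNAJB6, 0.013 for HSF1 and -0.00042 for DNAJC10, and combination values -0.37 for DNAJB5, which was then called (adjusted p = 0.048), and 0.0026 for HSF1. Median subtraction added 0.08 to every androgen change and 0.06 to every combination change. Averaging brought in the other probe sets of a gene, such as DNAJB6 209015_s_at at -0.55 for androgen. Causes of the sign changes with quantile normalization were not tested.

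Leaving out 1 array, androgen values that changed sign ranged from -0.12 to 0.06 for DNAJC8 212490_at, -0.07 to 0.19 for 212491_s_at, -0.04 to 0.023 for DNAJB1 200666_s_at, -0.30 to 0.45 for DNAJB2, -0.59 to 0.11 for DNAJB5 207453_s_at, -0.033 to 0.13 for DNAJC7 202416_at and -0.20 to 0.22 for 215252_at. They ranged from -0.06 to 0.0065 for HSPA8, -0.07 to 0.08 for HSPH1, -0.07 to 0.23 for HSF1, -0.11 to 0.05 for DNAJC11, -0.22 to 0.18 for BAG2 and -0.41 to 0.06 for HMOX1. Celastrol values ranged from -0.06 to 0.034 for DNAJB6 208811_s_at, -0.00078 to 0.039 for DNAJC7 202416_at and -0.17 to 0.13 for HSF1. Combination values ranged from -0.06 to 0.26 for DNAJB5 212817_at, -0.007 to 0.16 for DNAJC7 202416_at and -0.13 to 0.19 for HSF1. Signal over background limits DNAJB5, whose probe sets lie below the median.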
